A study of Mus musculus with 36 samples.

Results

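The libraries described here are the 6 of mouse glioma cells taken before any myelin was given, 3 from cells kept together with macrophages (co-culture) and 3 from cells kept alone (mono-culture), out of 36 libraries in the whole study. They were chosen by label: tumour cell, 0 h, which the labels also call the control. The tumour cells were the line PDG-Ink4a Recurrent, from a recurrent PDGFB-driven glioblastoma of mice whose Nestin-expressing cells received the growth factor and which lack Ink4a/Arf, a background that all 6 libraries share. Being 1 line, it stands for 1 tumour and not for the disease. The macrophages were grown from mouse bone marrow, the cells were sorted before RNA was taken, and the libraries of each group are numbered 1 to 3. The labels give neither the length of the co-culture nor whether the 3 libraries came from separate cultures. P-values therefore measure the spread between libraries, which may be technical. The other tumour cell libraries, used below for comparison, were taken 6 h and 24 h after myelin debris was added, 3 per culture and time. Unless stated, the gene tests fitted these other libraries together with the 6. The spread in those tests is therefore pooled over the 3 times, and the effect of a library's number is taken as equal at each.

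The comparison asks what macrophages do to the transcriptome of glioma cells before lipid-rich debris enters the picture. Macrophages are abundant in glioblastoma and signal to tumour cells through secreted ligands, among them oncostatin M, which binds a receptor built from the OSMR and gp130 chains and activates STAT3 in cells that carry it. Tumour cells in contact with macrophages are known for a mesenchymal state, and their growth depends on sterols that they make themselves or take up. Sterol synthesis runs from acetyl-CoA through mevalonate, squalene and lanosterol to cholesterol, and its enzymes are switched on together by the transcription factor SREBP2 when membrane sterol is low.

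Total counts of the 6 libraries ran from 11574383 to 12322984. The cells carried the platelet-derived growth factor receptor gene Pdgfra at 110 to 126 CPM, which is the count scaled to the library total, Sox2, a stem cell factor, at 15.7 to 19.7 CPM, and Cspg4, the progenitor proteoglycan NG2, at 482 to 967 CPM. The glial markers Sox10 and Gfap were at or near 0, with means of at most 0.139 CPM. Summed fibroblast and mural cell markers (9 of 14 tested) stood at 17795 to 29837 CPM in cells kept alone and 20317 to 24600 CPM in co-culture, so those markers do not set the tumour cells apart from mesenchymal cells. These levels and those of the next paragraphs are CPM without TMM scaling; levels given with a fold change are scaled. The transcript CT010467.1 took 133706 CPM of mono-culture library 1 and at most 32297 CPM of any other of the 6. Libraries of number 1 stood apart from those of numbers 2 and 3 in both cultures: deviations from the group means correlated at -0.69 to -0.45 between number 1 and the other numbers of the other culture.

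RNA of macrophage genes was present in the sorted tumour cells, with a higher mean in co-culture, a difference that the test did not establish. As the median level of 50 macrophage marker genes relative to macrophages kept alone, it was 0, 0.389 and 0.481% in the mono-culture libraries numbered 1, 2 and 3, and 0.0243, 2.63 and 1.87% in the co-culture libraries. The means were 0.29 ± 0.255% and 1.51 ± 1.34% (SD, n = 3 each; two-sided exact permutation test, p = 0.3, where 0.1 is the smallest p that 3 against 3 allows). The 50 markers were those with the largest ratio of level in mono-culture macrophages to that in mono-culture tumour cells at 0 h. That choice of markers favours genes low in the mono-culture tumour libraries, so it can lower their share. They include Xist and H2-Aa, described below. Summed over the 24 macrophage markers of a fixed list, the level ran from 17.4 to 503 CPM in cells kept alone and from 29.2 to 2338 CPM in co-culture. The median level over that list, relative to macrophages kept alone, was 0.0294, 1.10 and 1.63% in mono-culture libraries 1, 2 and 3. In co-culture libraries 1, 2 and 3 it was 0.102, 8.23 and 5.58%, so the size of the share depended on the markers. Number 1 was nearly free of this RNA in both cultures and numbers 2 and 3 were not. For that reason a gene was set aside when its mean CPM was over 20 times higher in mono-culture macrophages than in mono-culture tumour cells at 0 h. This held for 432 of 13603 tested genes and left 13171.

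The macrophage genes in the tumour libraries did not have the proportions of the macrophages that shared their number. Xist, the RNA of the inactive X chromosome, stood at 737 and 698 CPM in the co-culture macrophages numbered 2 and 3 and at 0 in those numbered 1. At the shares of macrophage RNA given above, the co-culture tumour libraries 2 and 3 would hold 19.4 and 13.1 CPM of Xist, and they held 0.162 and 0.248 CPM, which is 2 and 3 counts. H2-Aa, a class II antigen presentation gene at 95.2 and 129 CPM in those macrophages, had 0 counts in all 6 tumour libraries, and its partner Cd74 was at 0.169 and 0.112% of its macrophage level. Other genes were far above the median share. The complement gene C1qa was at 34.4 and 16.3% of its level in the co-culture macrophages of the same number, the fractalkine receptor gene Cx3cr1 at 22.1 and 12.5%, and Fcrls, a microglial marker, at 91.2 and 53.2%. The Y-linked gene Ddx3y was at 82.0 to 121 CPM in all 18 tumour libraries and at most 5.75 CPM in the macrophages of numbers 2 and 3, while the macrophages numbered 1 held 56.8 CPM or more. Tumour cells labelled mono-culture held the same kind of RNA, with 16.6 and 21.8 CPM of C1qa and 163 and 225 CPM of Lyz2 in libraries 2 and 3. The genes named in this paragraph were chosen after their values were seen.

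**Figure D1:**
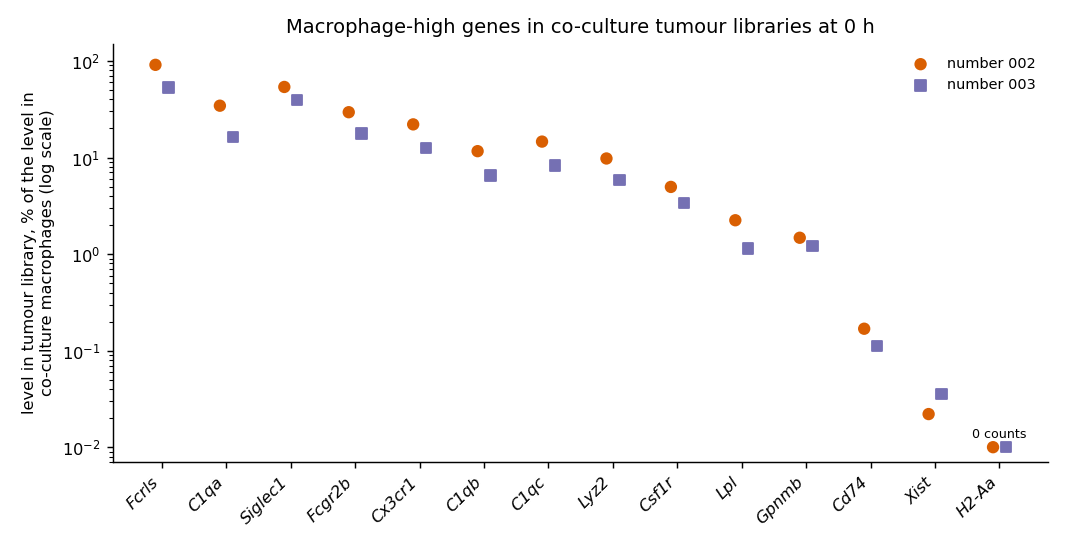
Level of 14 macrophage-high genes in the co-culture tumour libraries 2 (circles) and 3 (squares) at 0 h, as a percentage of the level in the co-culture macrophages of the same number, on a log scale; H2-Aa had 0 counts and is drawn at the bottom. Fcrls reached 91.2% in library 2, whereas Xist was at 0.022 and 0.0355%.

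The tumour cell libraries of 0 h, 6 h and 24 h were fitted together and blocked by their number. At 0 h, 54 of the 13171 genes kept passed an adjusted p under 0.05 (edgeR's quasi-likelihood test, Benjamini-Hochberg over all 13603 genes). Of these, 21 were higher in co-culture (0.159% of the genes kept) and 33 lower (0.251%). The changes were small, with 6 of 54 reaching 2-fold. Among the genes set aside 108 passed, every one of them higher. The rule that set them aside used the mono-culture tumour level at 0 h, from which the change is also measured. Their direction is therefore no separate result. The median log2 value of all genes set aside was 1.61 at 0 h, 0.239 at 6 h and -0.298 at 24 h. Genes whose 3 libraries per group did not overlap numbered 603 higher (4.58%) and 691 lower (5.25%) over all genes kept, and 11 of the 21 and 24 of the 33. The verbs rose and fell are used below for the 54.

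This count depended on the block, on where the adjustment was made and on numbers 2 and 3. Without the number as a block 0 genes kept passed (675 at an unadjusted p under 0.05), against 54 with it (1599 unadjusted). DESeq2 with the block called 146, including all 54. When p-values were adjusted over the 13171 genes kept alone 3 genes passed: Pappa (edgeR, adjusted p = 0.0168), Abcb1b (0.0441) and Fcgr2b (0.0441). In this fit the others of the 54 passed only when the genes set aside took part in the adjustment. Adjusted p-values below are over all genes tested unless stated. Leaving out co-culture library 2 left 1 gene, mono-culture library 2 left 0 and mono-culture library 3 left 2. Without co-culture library 3 the count was 22, of which 12 were among the 54. The 6 libraries fitted alone gave 3, of which 1 was among the 54. Leaving out both libraries of number 2 or of number 3 left 0, whereas leaving out both of number 1 gave 110, of which 34 were among the 54.

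**Figure D2:**
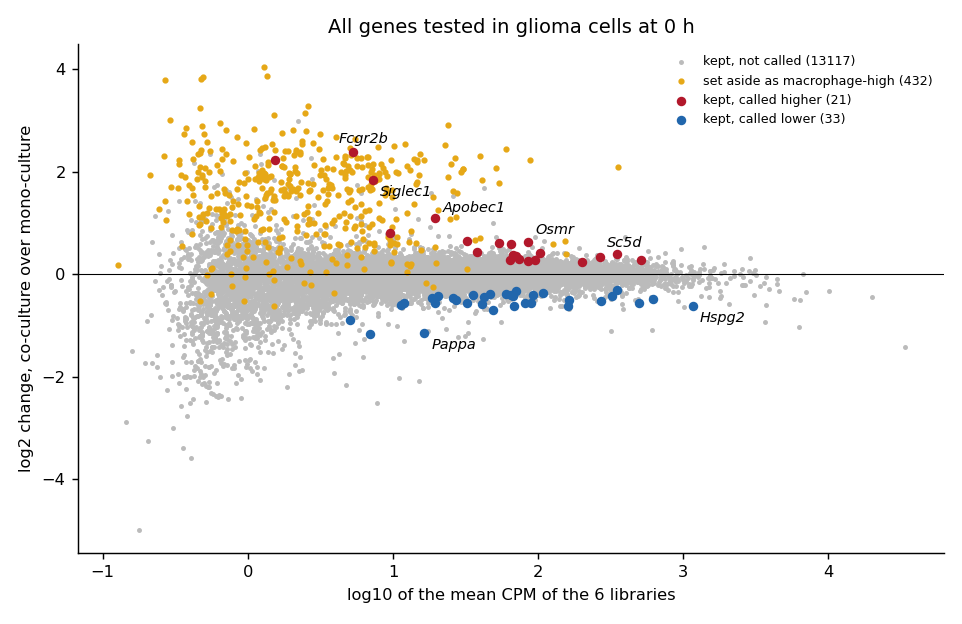
Change of every gene tested, as log2 of co-culture over mono-culture at 0 h (vertical), against log10 of its mean CPM over the 6 libraries (horizontal). Genes set aside as macrophage-high (yellow) lie mostly above 0 with a median of 1.61. They were picked in part for a low mono-culture level, from which the change is measured. The 21 higher (red) and 33 lower (blue) genes that passed lie close to the body of the 13171 genes kept, whose median is -0.01.

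The oncostatin M receptor gene rose in every number, with the highest fold in number 1. Osmr (chromosome 15, 6813577 to 6874969) was at 61.1, 66.5 and 72.2 CPM in mono-culture libraries 1, 2 and 3 and at 111.5, 94.6 and 103.5 CPM in co-culture. Every co-culture library was above every mono-culture library. The log2 change was 0.63 ± 0.13 (SE), and by number it was 0.86, 0.51 and 0.52. Its adjusted p was 0.0332 over all genes tested and 0.133 over the genes kept alone (edgeR). Macrophages held next to none of this transcript, 0.0533 CPM alone and 2.63 CPM in co-culture. The log2 value was 0.65 and 0.70 after macrophage RNA was subtracted in either of the ways described below (edgeR, adjusted p = 0.0432 and 0.113). Osmr passed in 6 of 20 fits with other settings or libraries left out. Without both libraries of number 1 its log2 value was 0.51 (edgeR, adjusted p = 0.115). The promoter is shown because this gene is the receptor chain through which a macrophage ligand is read. It lies at chr15:6874264-6874563 on the minus strand of GRCm38.p6 (RefSeq), and capitals mark the string TGANTCA, the AP-1 site, the only motif of the 7 searched that it held.

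Osmr: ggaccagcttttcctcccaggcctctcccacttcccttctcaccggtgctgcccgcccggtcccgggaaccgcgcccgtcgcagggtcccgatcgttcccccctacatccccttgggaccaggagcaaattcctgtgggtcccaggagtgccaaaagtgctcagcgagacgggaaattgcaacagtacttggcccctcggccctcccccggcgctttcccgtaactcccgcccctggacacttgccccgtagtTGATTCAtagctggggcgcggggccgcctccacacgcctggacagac

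The rest of that pathway did not pass. Il6st, which encodes the shared chain gp130, was at 508, 493 and 476 CPM in cells kept alone and 650, 547 and 565 CPM in co-culture, without overlap (log2 0.25 ± 0.09, adjusted p = 0.239). The feedback inhibitor gene Socs3 had means of 13.8 and 14.4 CPM (0.15 ± 0.28) and the transcription factor gene Stat3 of 186 and 205 CPM (0.15 ± 0.11). Lifr, the alternative receptor chain, was at 8.32 and 9.25 CPM. Of 26 STAT3 and interleukin-6 family genes kept, 1 rose, 0 fell and 20 had a positive sign, with a median of 0.12 against -0.01 over all genes kept. The ligand gene Osm was at 3.05 CPM in macrophages alone and 12.6 CPM in macrophages of co-culture, and at most 1.22 CPM in a tumour library. Other ligands of the receptor family were made by the tumour cells themselves, with Lif at 7.69 to 17 CPM and Clcf1 at 28.6 to 38.9 CPM, and neither passed.

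Nearly all sterol synthesis genes had a positive sign, and 2 of them rose. Sc5d, which encodes a desaturase of the last steps of cholesterol synthesis, was at 248, 240 and 222 CPM in cells kept alone and 312, 282 and 298 CPM in co-culture (log2 0.33 ± 0.07, adjusted p = 0.0432). Dhcr7, the enzyme that follows it and completes cholesterol, was at 65.5, 63.8 and 56.9 CPM against 83.8, 72.3 and 81.7 CPM (0.35 ± 0.08, adjusted p = 0.0391). Neither gene's groups overlapped, and number 1 showed the rise with log2 values of 0.33 and 0.35. In the list of 24 sterol synthesis and uptake genes 23 had a positive sign, with a median of 0.24. Of the 24, 15 had an unadjusted p under 0.05, against 1599 of all 13171 genes kept. In other fits that 15 ran from 5, without the block or without both libraries of number 3, to 19, with the fixed markers subtracted. The calls were fragile, since 0 of the 24 passed in 8 of 9 fits with libraries left out.

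Among the members that did not pass, Ebp (32.4 to 42.7 CPM, log2 0.40 ± 0.11) and Nsdhl (147 to 188 CPM, 0.35 ± 0.09), both late enzymes, had the largest values. Hmgcs1, the synthase at the start of the pathway, was at 428 and 491.5 CPM (0.21 ± 0.09, adjusted p = 0.301). Srebf2, which encodes SREBP2 itself, was at 322 and 321 CPM (-0.02 ± 0.08). The list's median stayed between 0.18 and 0.31 over the fits run with libraries left out or with other settings, and was 0.25 and 0.28 after macrophage RNA was subtracted. The exporter gene Abca1 was at 77.6 and 67.8 CPM (-0.20 ± 0.14) and did not pass.

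The promoters of the 2 sterol genes that rose are shown because the genes sit side by side in the pathway. Capitals mark CACGTG, the E-box, in Sc5d (chr9:42264251-42264550, minus strand). In Dhcr7 (chr7:143822917-143823216, plus strand, the first of 3 RefSeq starts) they mark GGGNNTTCC, here on the opposite strand. That string was searched for as a kappa B site, and the match is one of letters only. The 2 promoters share no string of the 7 in these windows. Of the Dhcr7 starts, the second holds an E-box and the third an AP-1 site.

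Sc5d: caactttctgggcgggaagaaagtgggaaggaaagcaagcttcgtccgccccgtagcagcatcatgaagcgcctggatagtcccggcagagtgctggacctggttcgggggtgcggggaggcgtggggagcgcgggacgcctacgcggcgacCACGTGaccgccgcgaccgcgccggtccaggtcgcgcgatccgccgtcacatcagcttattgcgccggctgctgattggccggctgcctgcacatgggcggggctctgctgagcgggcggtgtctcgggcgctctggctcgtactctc

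Dhcr7: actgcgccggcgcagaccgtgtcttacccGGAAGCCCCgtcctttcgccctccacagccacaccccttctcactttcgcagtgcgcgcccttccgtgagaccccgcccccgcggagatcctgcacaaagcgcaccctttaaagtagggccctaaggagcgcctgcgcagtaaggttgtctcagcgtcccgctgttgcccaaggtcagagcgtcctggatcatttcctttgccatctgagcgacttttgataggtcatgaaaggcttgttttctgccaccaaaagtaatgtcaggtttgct

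A drug transporter gene and a pair of glycosyltransferase genes rose. Abcb1b (chromosome 5, 8798147 to 8866315), which encodes a P-glycoprotein that pumps lipophilic compounds out of cells, was at 20.1, 29.2 and 26.5 CPM in cells kept alone and 29.4, 46.2 and 44.5 CPM in co-culture. Its groups did not overlap, although the lowest co-culture library was level with the highest mono-culture library, and the log2 change was 0.65 ± 0.10 (adjusted p = 0.00893). Reads shared with its close paralog Abcb1a could be split between them by the counting; Abcb1a was at 11.5 and 17.4 CPM (0.60 ± 0.20, adjusted p = 0.179). St3gal1, a sialyltransferase of O-linked glycans, went from a mean of 42.6 to 65.7 CPM (0.61 ± 0.13). B4galt6, which makes lactosylceramide, went from 66.8 to 82.2 CPM (0.30 ± 0.06), and Sptlc2, a subunit of the enzyme that starts sphingolipid synthesis, from 85.4 to 103.9 CPM (0.28 ± 0.06). Macrophages held 2.82, 4.74, 3.30 and 1.56 times the tumour cell level of Abcb1b, St3gal1, B4galt6 and Sptlc2. After the 2 subtractions of macrophage RNA described below, the log2 value was 0.66 and 0.68 for Abcb1b and 0.59 and 0.54 for St3gal1.

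Genes of the cytoskeleton and of vesicle traffic were also among the 21. Tagln2, an actin-binding protein of the transgelin family and the single gene of 26 kept from the mesenchymal glioma list that passed, was at 299 to 313 CPM in cells kept alone and 375 to 426 CPM in co-culture (log2 0.40 ± 0.08). Arhgdib, an inhibitor of small GTPases, was at 83.3 to 91.2 and 100.2 to 129.5 CPM (0.42 ± 0.07), and Rab8b, a GTPase of membrane traffic, at 52.6 to 61.5 and 66.9 to 83.8 CPM (0.37 ± 0.07). The levels of these 3 genes in macrophages were 2.16, 5.27 and 6.80 times those in tumour cells, and the log2 value of Rab8b was 0.30 and 0.11 after the 2 subtractions described below. Slc31a1, the copper importer, went from 77.1 to 92.5 CPM (0.26 ± 0.06). Setdb1, a histone H3 lysine 9 methyltransferase, went from 57.9 to 70.0 CPM (0.27 ± 0.06), and its gene overlaps Cers2 on the other strand, whose reads cannot be told apart from its own here. Slc31a1 overlaps Cdc26 in the same way. The remaining genes that rose were Gsap, Cndp2, Pwp2, Cyb5b and Eif1a, with log2 changes from 0.23 to 0.81. Gsap and Cndp2 stood 7.14 and 8.75 times higher in macrophages than in tumour cells. With the fixed markers subtracted, their log2 values went from 0.81 to 0.54 and from 0.58 to 0.38.

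Macrophage genes that the limit of 20 did not remove were the largest of the 21. Fcgr2b, an inhibitory Fc receptor, was at 0, 1.90 and 3.24 CPM in cells kept alone and 0.259, 15.8 and 10.7 CPM in co-culture (log2 2.38 ± 0.36). Cd300lf, an inhibitory receptor of myeloid cells, was at 0, 0.992 and 0.581 CPM and at 0, 4.73 and 2.89 CPM (2.23 ± 0.45). Siglec1, the sialic acid receptor of tissue macrophages, was at 0.0986, 3.56 and 5.81 CPM and at 0.173, 19.2 and 14.9 CPM (1.84 ± 0.41). In all 3 genes library 1 of co-culture was at or near 0 and libraries 2 and 3 were high, which is the order of the macrophage RNA. Fcgr2b and Siglec1 stood in co-culture tumour libraries 2 and 3 at 29.5 and 17.8%, and at 53.8 and 39.4%, of the same-number macrophages. When genes over 20 times higher in co-culture macrophages were set aside as well, 51 genes passed.

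Apobec1, a cytidine deaminase, sat just inside the limit with a macrophage level 19.4 times that of tumour cells, and Sh3bp2 just outside with 20.8 times. Apobec1 was at 8.08, 14.1 and 13.9 CPM in cells kept alone and 11.1, 40.8 and 29.8 CPM in co-culture (log2 1.09 ± 0.21), and Sh3bp2, an adaptor of immune receptor signalling, had a log2 value of 0.61. Of the 21 genes that rose, 17 had a higher level in macrophages than in tumour cells (81.0%), against 39.9% of all genes kept and 2 of the 33 that fell. By number, the median log2 value of the 21 was 0.33, 0.51 and 0.52 in numbers 1, 2 and 3, a description only, since all 3 numbers entered the fit that chose them; over all genes kept, 6517 of 13171 were higher in co-culture in number 1. The passing genes that were set aside had medians of 0.23, 2.40 and 1.58. Subtracting macrophage RNA by the 50 markers left 13 of the genes called, 6 higher and 7 lower, and subtracting by the fixed marker list left Pappa alone. Since the macrophage RNA did not have the proportions of these macrophages, either subtraction uses a profile that is not its own. Fewer macrophage cells and less macrophage RNA per cell cannot be told apart in such libraries.

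**Figure D3:**
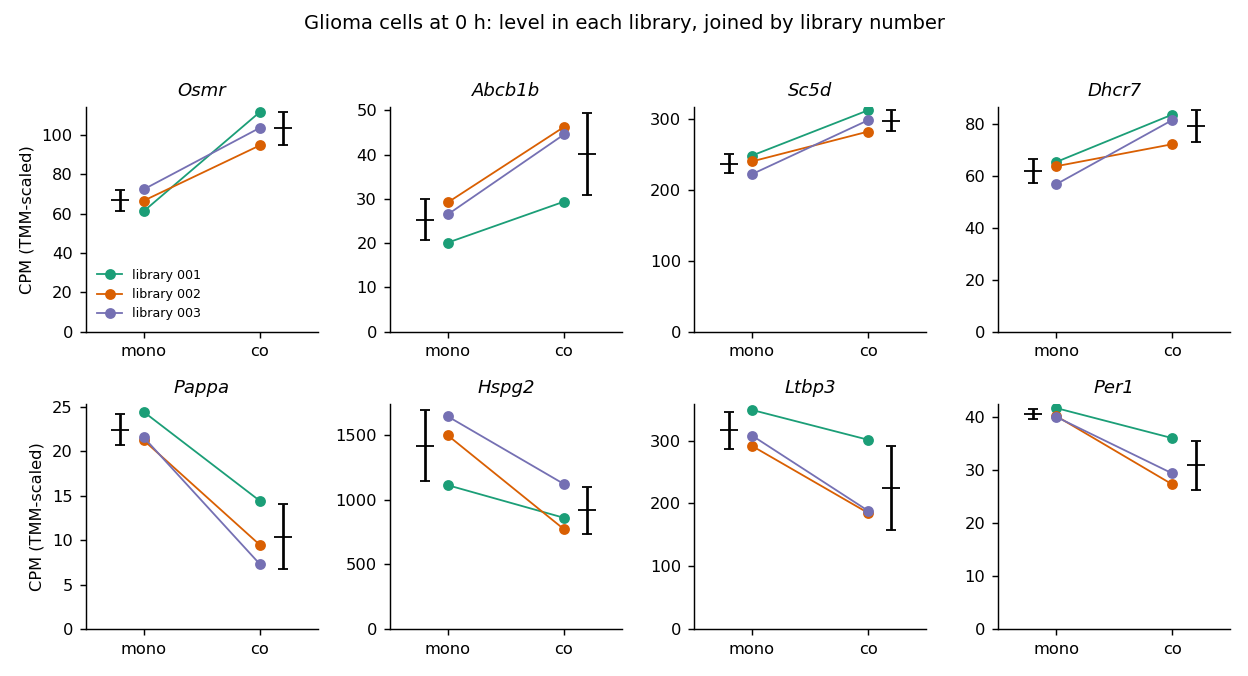
Level in CPM of 4 genes that rose (top) and 4 that fell (bottom) in the mono-culture and co-culture libraries at 0 h, with lines joining libraries of the same number and black bars giving the mean and SD of each group (n = 3). Osmr moved from 66.6 to 103.2 CPM and Pappa from 22.4 to 10.4 CPM on average, with no overlap between groups.

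Among the 33 genes that fell, 5 encode secreted proteins of the extracellular matrix or of growth factor release, a grouping made after the values were seen. The share of such genes over all genes kept was not counted, so the 5 are a description only. Of 20 genes kept from a list of matrix proteases and inhibitors, 0 passed. Pappa (chromosome 4, 65124174 to 65357509), a secreted protease that frees insulin-like growth factors from their binding protein, was at 24.4, 21.2 and 21.6 CPM in cells kept alone and 14.4, 9.46 and 7.30 CPM in co-culture. Each co-culture library was below each mono-culture library, and the log2 change was -1.15 ± 0.15 (adjusted p = 0.00434), the lowest p of the 54. Pappa passed in 15 of 20 fits with other settings or libraries left out, the most of any of the 54. Igfbp4, which encodes a binding protein that this protease cuts, had means of 31.6 and 29.4 CPM and Igf1 of 9.51 and 38.9 CPM, the latter a gene at 508 CPM in co-culture macrophages and at 6.37 CPM in co-culture library 1.

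Hspg2, which encodes the basement membrane proteoglycan perlecan, was at 1111, 1496 and 1642 CPM in cells kept alone and 858, 770 and 1119 CPM in co-culture (log2 -0.63 ± 0.13, adjusted p = 0.0379). It fell in every number, while the highest co-culture library lay just above the lowest mono-culture library. Adamtsl1 and Adamtsl3, secreted matrix proteins that resemble ADAMTS proteases without the catalytic part, went from 60.1 to 37.7 CPM (-0.69 ± 0.12) and from 369 to 277 CPM (-0.43 ± 0.09). Ltbp3, which holds latent TGF-beta in the matrix, was at 349, 292 and 308 CPM and at 301, 185 and 188 CPM (-0.53 ± 0.12), and its gene overlaps another on the other strand. Collagen genes pointed the same way without passing, with a negative sign in 17 of 17. Their median was -0.26, against -0.01 over all genes kept. Examples were Col1a1 at 11210 and 8925 CPM (-0.33 ± 0.21, with 0.30 in number 1) and Col12a1 at 1714 and 1311 CPM (-0.43 ± 0.20). In number 1 the summed fibroblast and mural markers were higher in co-culture, at 24600 against 17795 CPM without TMM scaling. Collagen values with the GC and length offset described below are not reported here. Of 25 other matrix glycoprotein and crosslinker genes 21 had a negative sign, with a median of -0.18, and none passed.

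Other genes that fell are given by the kind of protein they encode, a grouping made after the values were seen. Utrn, the dystrophin relative utrophin, went from 389.5 to 315 CPM (log2 -0.31 ± 0.07), and Sgcd, a sarcoglycan of the same membrane complex, from 29.8 to 21.7 CPM (-0.46 ± 0.10). Neither gene's groups overlapped. Adgrl3, a latrophilin adhesion receptor, went from 32.0 to 22.6 CPM (-0.50 ± 0.10), with groups at 31.3 to 32.9 and 21.7 to 23.3 CPM. Pkd1, the gene of polycystin 1, went from 589 to 402.5 CPM (-0.56 ± 0.12) and overlaps Tsc2 on the other strand. Pdlim2, which links actin to nuclear factor turnover, went from 104.2 to 79.4 CPM (-0.40 ± 0.07). Gprin3 was low, with a co-culture mean of 4.45 CPM (-1.16 ± 0.25).

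Tnrc6b, a partner of Argonaute in microRNA silencing, was at 237, 159 and 175 CPM in cells kept alone and 162, 104 and 135 CPM in co-culture (log2 -0.51 ± 0.09). Chd6, a chromatin remodeller, went from 68.0 to 52.2 CPM (-0.39 ± 0.08), Rai1 from 73.4 to 55.8 CPM (-0.40 ± 0.08) and the homeodomain factor gene Zfhx4 from 83.3 to 54.0 CPM (-0.62 ± 0.10). Tnrc18 went from 196 to 126.5 CPM (-0.62 ± 0.11) and was 1 of the 3 genes that passed with the 6 libraries alone (adjusted p = 0.0484). Rai1 overlaps Srebf1 and Rfx1 an antisense gene, so the strand of their reads is not known. Fbxo32, the muscle atrophy ubiquitin ligase atrogin 1, went from 23.2 to 15.8 CPM (-0.56 ± 0.12). Rplp1, a ribosomal stalk protein with many pseudogenes, went from 719 to 516.5 CPM (-0.47 ± 0.11). The others that fell were Cep131, Abhd8, Bahcc1, Ttc28, Mettl27, Scarf2, Atg101, Prr12, Lzts2, Map1s, Rusc2 and Arhgef17, with log2 values from -0.59 to -0.33.

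The clock gene Per1, a repressor in the circadian feedback loop, was at 41.6, 40.1 and 39.9 CPM in cells kept alone and 35.9, 27.2 and 29.3 CPM in co-culture (log2 -0.41 ± 0.09, adjusted p = 0.0418). Of 16 circadian clock genes it was the one that passed, and 13 had a negative sign, with a median of -0.13. Dbp, an output gene of the clock, had means of 30.0 and 18.8 CPM (-0.70 ± 0.18, adjusted p = 0.074) and the repressor gene Nr1d1 100.2 and 74.0 CPM (-0.43 ± 0.12, adjusted p = 0.102), while Arntl and Clock, the activators, were at -0.02 and 0.04. Time of collection is not among the labels. The Per1 promoter at the first of 2 RefSeq starts (chr11:69098699-69098998, plus strand) is shown because the E-box, in capitals, is the string that the clock activators bind.

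Per1: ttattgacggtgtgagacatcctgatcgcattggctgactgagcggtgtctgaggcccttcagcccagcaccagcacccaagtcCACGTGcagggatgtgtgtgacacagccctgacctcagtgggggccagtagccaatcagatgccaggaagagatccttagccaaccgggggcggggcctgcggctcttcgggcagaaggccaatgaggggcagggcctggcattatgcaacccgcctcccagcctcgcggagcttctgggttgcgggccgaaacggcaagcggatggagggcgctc

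The genes that fell were long and rich in GC. Their median transcript length was 7023 bases and their median GC content 58.0%, against 3128 bases and 49.6% over all genes kept and 4154 bases and 46.2% for those that rose. Of the 33, 20 lay in the quintile of genes with the highest GC content and 21 in that with the longest transcripts. That GC quintile as a whole had a median log2 value of -0.09, and -0.03, -0.12 and -0.10 in numbers 1, 2 and 3. With GC content and length entered as an offset, 35 genes passed, 19 higher and 16 lower, 27 of them among the 54. Pappa, Adamtsl1 and Zfhx4 were among those that still passed (adjusted p = 0.014, 0.0246 and 0.0201), and others lost the call. With the offset, Hspg2 went from -0.63 to -0.28 (edgeR, adjusted p = 0.298), Ltbp3 from -0.53 to -0.36 (0.055) and Pkd1 from -0.56 to -0.31 (0.126). Utrn went from -0.31 to -0.16 (0.233) and Rai1 from -0.40 to -0.20 (0.268). Tnrc18 went from -0.62 to -0.37 (0.0993) and Tnrc6b from -0.51 to -0.27 (0.0523), while Per1 moved less, from -0.41 to -0.29 (0.168). Sgcd and Adgrl3 were at -0.48 and -0.48, against -0.46 and -0.50 without it, and still passed (0.0372 and 0.0295). The part of GC content and length in the changes was not tested further.

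**Figure D4:**
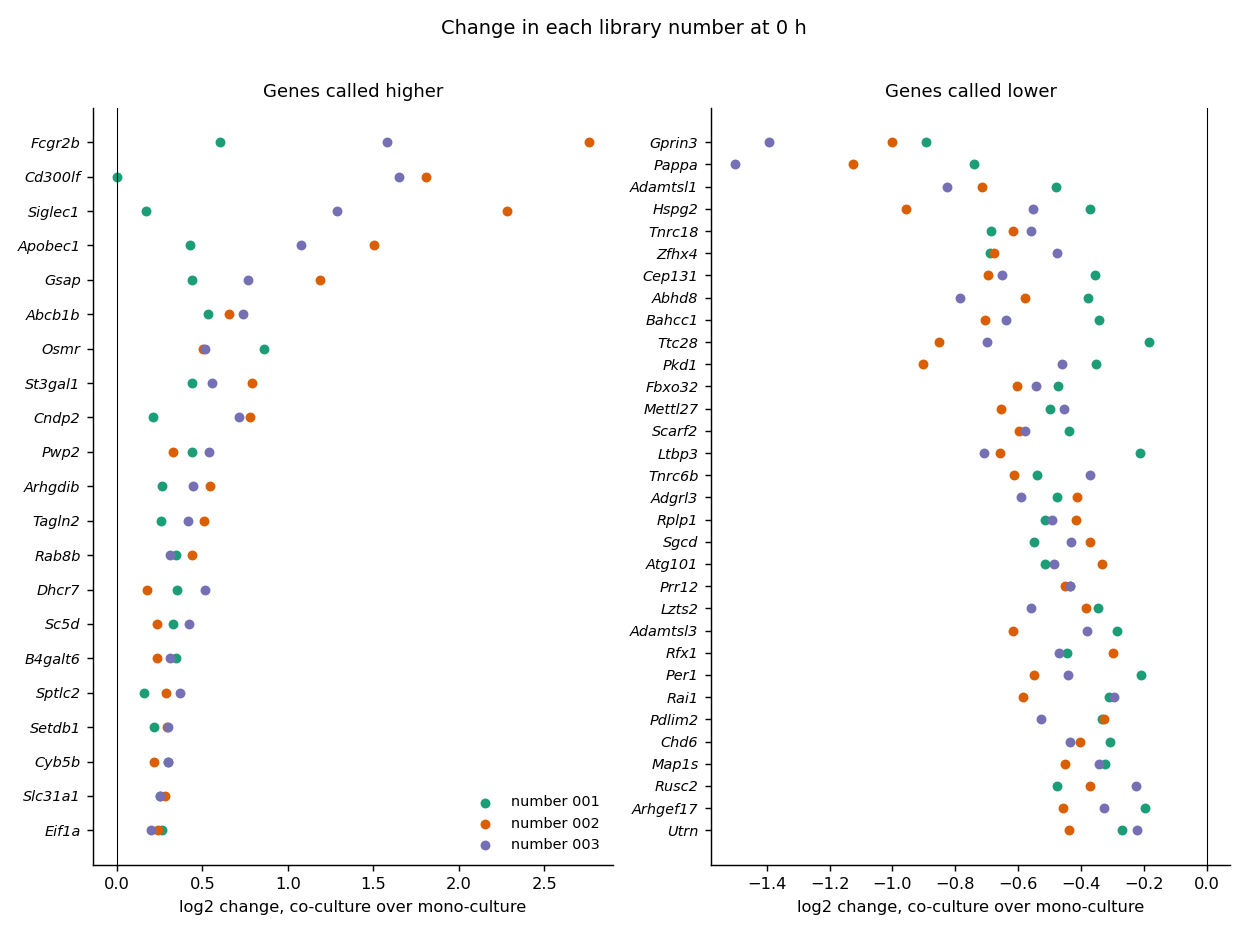
Log2 change of co-culture over mono-culture in each library number for the 21 genes that rose (left) and 32 of the 33 that fell (right). Number 1 (green) lies lowest for Fcgr2b, Cd300lf, Siglec1 and Apobec1 and highest for Osmr, and all lower genes drawn lie below 0 in every number.

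In the other gene lists no gene passed, and the medians ran in both directions around -0.01, that of all genes kept. Ribosome biogenesis and Myc target genes had a positive sign in 21 of 22, with a median of 0.23. Of the 22, 13 had an unadjusted p under 0.05, against 1599 of all 13171 genes kept. Of 18 genes of the NRF2 oxidative stress response 14 were positive, with a median of 0.28, including G6pdx at 131 and 173 CPM (log2 0.41 ± 0.10, adjusted p = 0.0637). Of 15 iron and metal genes 15 were positive, with a median of 0.22, including the ferritin gene Fth1 at 1135 and 1651 CPM (0.54 ± 0.16), a gene at 9131 CPM in co-culture macrophages. The chemokine gene Ccl2, which draws monocytes, had means of 34.6 ± 16.6 and 62.7 ± 10.5 CPM (SD, n = 3) without overlap (0.99 ± 0.32, adjusted p = 0.179). It was highest in its change in number 1, with 1.69.

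Interferon-stimulated genes pointed down without passing, with 24 of 28 negative and a median of -0.30, and the interferon-induced GTPases with 13 of 13 negative and a median of -0.40. Rsad2, which encodes viperin, was at 13.5, 3.06 and 2.66 CPM in cells kept alone and 1.99, 1.50 and 0.963 CPM in co-culture (log2 -1.92 ± 0.54, adjusted p = 0.117), with log2 values of -2.49, -0.83 and -1.11 in numbers 1, 2 and 3. Growth factor receptors and ligands followed by choice were close to level: Egfr at 92.2 and 93.9 CPM (0.03 ± 0.11), Axl at 823 and 832 CPM (0.01 ± 0.08), its ligand Gas6 at 84.8 and 86.5 CPM, Pdgfra at 123.2 and 121.0 CPM (-0.03 ± 0.09), and Csf1, the macrophage growth factor, at 844 and 910 CPM (0.10 ± 0.14). Hbegf had means of 86.1 and 99.8 CPM (0.18 ± 0.17) and Cd44, the hyaluronan receptor, 1754 and 2076 CPM (0.19 ± 0.16). Genes of DNA replication and of mitosis had medians of 0.10 and -0.09, with none passing.

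RefSeq promoters of 300 bases were found for 16 of the 21 genes that rose, 25 of the 33 that fell and 9835 of 13170 gene symbols kept. The AP-1 string TGANTCA was in a promoter of 12.5% of the first, 4% of the second and 6.25% of all. The STAT string TTCNNNGAA was in 0%, 4% and 8.15%, CACGTG in 12.5%, 20% and 11.8%, GGGNNTTCC in 12.5%, 16% and 8.55%, and the TEAD string GGAATG in 12.5%, 24% and 14.2%. The cyclic AMP element TGACGTCA was in 0%, 0% and 3.6%, and the core of the interferon response element in 0%, 4% and 3.68%. Both strands were searched. These are shares of letters in a short window, over few genes, and no test was made of them. The CACGTG and TGANTCA strings do not overlap in the promoters printed above.

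After myelin the direction of most of the 54 genes was the same. The libraries at 6 h and 24 h are others than those at 0 h. The same fit gave all these comparisons, with a shared spread and shared number effects, so the counts that passed are not independent of 0 h. Of the 21 genes that rose, 20 had a positive sign at 6 h and 17 at 24 h, where 9 passed as higher and 1, Cd300lf, as lower. Of the 33 that fell, 32 were negative at 6 h and 31 at 24 h, where 11 passed as lower. Over all genes kept, 50.1 and 48.5% had a positive sign at those times, and 49.9 and 51.5% a negative one. Among the genes kept 597 passed as higher (4.53%) and 235 as lower (1.78%) at 24 h, and 1 (0.00759%) and 4 (0.0304%) at 6 h, in the same fit. The count at 24 h fell from 832 to 11 without the block, and it was 9 to 40 when library 2 or library 3 of either culture at 24 h was left out.

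Pappa passed at all 3 times, with log2 values of -1.15, -1.01 ± 0.14 and -1.35 ± 0.14 at 0, 6 and 24 h. At 24 h its means were 28.6 and 11.5 CPM. St3gal1 was at 0.61, 0.44 and 1.00, Abcb1b at 0.65, 0.51 and 0.89 and Tagln2 at 0.40, 0.28 and 0.65, and these 3 passed at 0 h and 24 h. Osmr was at 0.63, 0.55 and 0.42, passing at 0 h, with an adjusted p of 0.0604 at 24 h, when its means were 106 and 142 CPM. Sc5d and Dhcr7 were at 0.12 ± 0.07 and 0.14 ± 0.08 at 24 h and did not pass. Hspg2 was at -0.08 and -0.19 and did not pass at either time. The change of the co-culture effect from 0 h to 6 h was called for 0 genes (edgeR quasi-likelihood; 290 at an unadjusted p under 0.05, and 0 by DESeq2), and from 0 h to 24 h for 3 genes kept (0.0228%; edgeR), so for nearly all of the 54 a difference between times was not shown.

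The genes with the other sign at 24 h were Fcgr2b, Cd300lf, Siglec1 and Apobec1 among those that rose, and Bahcc1 (0.02) and Map1s (0.05) among those that fell. Fcgr2b had a log2 value of 2.38 at 0 h and -0.68 ± 0.30 at 24 h, and Siglec1 1.84 and -0.81 ± 0.36. Mono-culture tumour libraries 2 and 3 held 1.79 and 2.41% of macrophage RNA at 24 h, against 1.88 and 1.77% in co-culture, so at that time the groups overlapped in it.

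**Figure D5:**
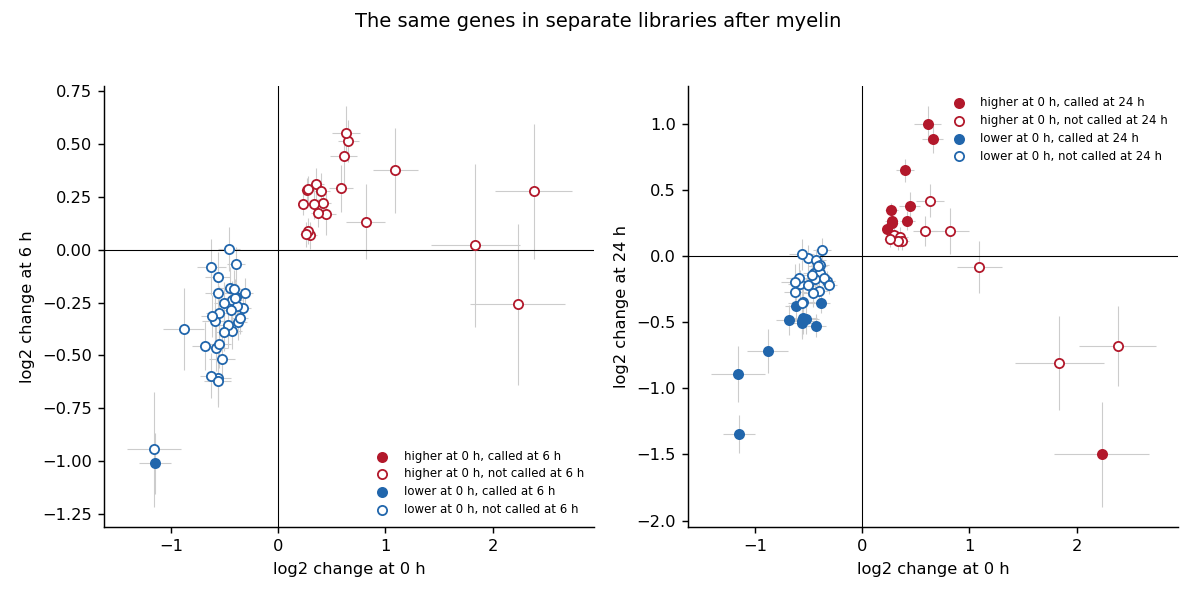
Log2 change at 6 h (left) and 24 h (right) against that at 0 h for the 54 genes, with red for those that rose and blue for those that fell, filled where the gene also passed at the later time; grey bars are standard errors. Most points keep their side of 0, with Cd300lf (2.23 at 0 h, -1.50 at 24 h) at the lower right.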

How the data were processed

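The labels' protocols describe sorted cells, column-purified RNA and oligo-dT priming with template switching. The authors deposited 1 table of whole-number counts per gene; the build is mm10 per the submitters' processing notes, and no source used here names the aligner, counter or strand setting. Counts of the 18 tumour libraries were fitted with edgeR 4.0.16 (R 4.3.3; TMM, filterByExpr, robust quasi-likelihood; group plus library number), leaving 13603 genes and 10 residual degrees of freedom. Genes over 20 times higher in macrophages were set aside after adjustment. The labels do not state a pairing. Residuals of same-number libraries correlated at 0.715, 0.59 and 0.535 at 0 h. Those of mono-culture 3 and co-culture 2 correlated at 0.575, and those of mono-culture 2 and co-culture 3 at 0.23. The values set number 1 apart and do not show that numbers 2 and 3 are pairs. CPM are TMM-scaled, except for marker, ligand and identity genes.

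The members and gene lists were chosen with earlier results of these data known. Named were the 15 largest changes per direction (CPM of at least 10, same direction in all numbers), list members that passed, and a fixed set; others were chosen after their values were seen, and some genes are not reported here. On simulated data with 13509 genes, 16% of 1.25-fold, 56% of 1.5-fold and 76% of 2-fold changes were recovered, with 3 false among 119 calls. The counts were drawn independently from the fitted model itself. At 0 h they held no difference between cultures in macrophage RNA or GC trend, and no culture effect that varied by number. These rates therefore need not hold for the real libraries. Alternatives were DESeq2 1.42.0, other scaling, filters, blocks and set-aside limits, and libraries left out.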

Additional observations from a re-analysis of the deposited data

Results flagged for a closer look

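In 3 of the genes kept, the effect of co-culture differed between 24 h after myelin and 0 h, by a test of the difference itself (edgeR's quasi-likelihood test of the interaction, adjusted over all genes). Cd300lf changed by -3.73 on the log2 scale between the times (adjusted p = 0.0276) and Fcgr2b by -3.06 (adjusted p = 0.0232). Both are macrophage genes. The macrophage RNA of libraries 2 and 3 was 0.389 and 0.481% in cells kept alone and 2.63 and 1.87% in co-culture at 0 h, and 1.79 and 2.41% against 1.88 and 1.77% at 24 h; its part in the difference was not tested. AI506816 changed by 0.50 (adjusted p = 0.0372), with a co-culture effect of 0.02 at 0 h and 0.52 at 24 h.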

How the results depend on the processing

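The 54 genes passing at 0 h became 0 with no replicate block, 30 with the block within each time, 3 with the 6 libraries alone, 146 with DESeq2, 162 with no gene set aside, 3 when adjusted after setting aside, 35 with a GC and length offset, and 13 or 1 after macrophage RNA was subtracted by the 50 or the fixed markers; leaving out libraries gave 0 to 110. At 6 h the 5 genes became 0 without the block, 112 with DESeq2, 11 without the low-count filter, 2 with the GC offset and 8 or 10 after subtraction, and 0 to 2 with libraries left out. At 24 h the 832 became 11 without the block, 1271 with DESeq2 and 553 without the filter, and 9 to 1381 with libraries left out. For the change of effect from 0 h to 24 h, 3 genes became 0 without the block or with it within each time, 28 with DESeq2 and 6 without the filter, and 0 to 90 with libraries left out; from 0 h to 6 h, 0 became 0 to 6.

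None of the 54 genes turned direction in 20 alternatives. These refit the libraries that chose the genes, in full or in part, so a kept direction is a description only. The number of alternatives in which a gene passed ran from 2 for Map1s to 15 for Pappa. With libraries left out, genes that had not passed turned: Socs3 ranged from -0.17 to 0.42, Egfr from -0.11 to 0.14, Hbegf from -0.015 to 0.34, Axl from -0.0469 to 0.0747, Gas6 from -0.0718 to 0.0748 and Csf1 from -0.00885 to 0.22. Pdgfra became 0.0411 after subtraction by the fixed markers. The subtractions, the GC offset and the leaving out of libraries at 6 h and 24 h were chosen after seeing the data. Total counts at 0 h were close to even; 3 libraries per group limit the precision.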
